A study of Mus musculus with 35 samples.

Results

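Adipose stromal progenitor markers are genes by which fibroblast-like cells of fat depots, including the precursors of new adipocytes, are recognised. Of the 55421 genes in the count table, 10 were taken by name for this account, and all 10 were found. Pdgfra, Pdgfrb, Cd34 and Ly6a mark stromal cells broadly, while Dpp4, Pi16, Cd55, Bmper, Icam1 and Gdf10 distinguish subtypes of adipose stromal cell (ASC). No member was at 0 in any library, but the lowest had few reads, with 2 to 24 reads per library for Dpp4 and 3 to 32 for Icam1.

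The stroma of a fat depot lies around the vessels and among the adipocytes, and holds cells able to divide and differentiate when the depot must grow. In brown adipose tissue, cold is known to call on this reserve through noradrenaline released by sympathetic nerves onto brown adipocytes. Pdgfra is the usual marker of progenitors competent to form adipocytes, and Pdgfrb is shared with the mural cells of small vessels. Pi16, Dpp4 and Cd55 mark cells of the fascia and around large vessels (ASC2). Bmper and Icam1 mark interstitial cells within the parenchyma (ASC1), and Gdf10 marks a further subtype (ASC3). Several of these proteins are not private to stromal cells, since Ly6a, Cd34 and Icam1 are also made by endothelium, and Icam1 by leukocytes.

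Interscapular brown adipose tissue (iBAT) was taken from male C57BL/6J mice aged 9 to 10 weeks, 5 kept at the 24 °C of the colony and 5 for each cold exposure at 6 °C. Exposure lasted 6 hours or between 1 and 5 days in steps of a day, and the labels list no transgene or drug. Cold mice were caged singly without nesting, which the labels state for the cold mice only, so housing and temperature cannot be told apart. Each of the 35 libraries came from 1 mouse and 1 trimmed iBAT pad, and was read at the 3′ end of polyadenylated transcripts, where a count does not scale with transcript length.

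Each library held 3846016 to 6047247 counts, so that 1 read was worth 0.165 to 0.26 CPM (counts scaled to a common library total) before normalization, and 33.61% to 46.19% of counts fell on mitochondrially encoded genes. Mature adipocyte markers were high in every group, with a summed CPM of 10470 to 16690, as a fat depot should give. RNA of skeletal muscle, which adjoins the depot, varied from 2.57 to 1223 summed CPM over 8 markers, and 6 libraries in 5 groups exceeded 500. Wnt2, listed with ASC2, had no read in 22 libraries. Levels below are CPM after TMM normalization, given per gene and not compared between genes.

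Ly6a, which encodes the surface protein Sca-1, had a mean above that of the controls at all 6 durations, but did not rise at every step. The 5 controls had 35.3, 43.4, 44.1, 32 and 42.3 CPM. After 6 hours the mice had 42.7, 56.6, 65.3, 54.7 and 58.5 CPM, and after 1 day 46.8, 48, 41.4, 63.3 and 62 CPM. At both times all 5 mice lay above the control mean, yet the ranges overlapped with the controls. After 2 days the values spread to 83.7, 103, 62.4, 42.8 and 66.3 CPM. After 3 days they were 120, 66.1, 137, 155 and 72.5 CPM, every mouse above every control and the highest mean of the time course at 110 ± 39.4 CPM (SD, n = 5). The mice of 4 days had 110, 86.9, 78.4, 67.2 and 52.3 CPM, and those of 5 days 90, 65.6, 46.2, 54.4 and 104 CPM. Both groups again lay wholly above the controls, whose mean was 39.4 ± 5.44 CPM.

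**Figure D1:**
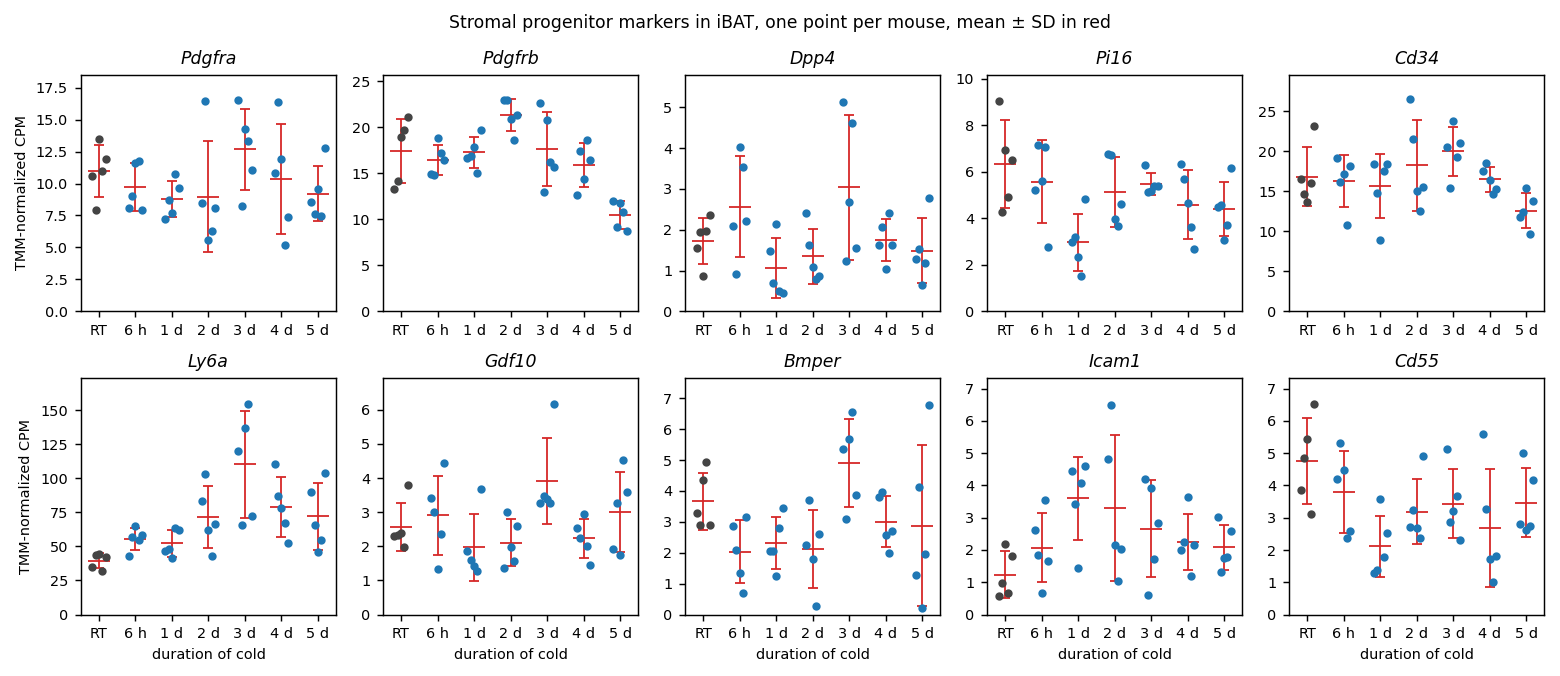
TMM-normalized CPM (vertical axes, from 0) of the 10 members by duration of cold, with RT for room temperature, 1 point per mouse and the mean ± SD of 5 mice in red. Ly6a is above all controls in every mouse from 3 to 5 days, Pdgfrb is below all controls after 5 days, and Pi16 and Cd55 have their lowest mean after 1 day.

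Each duration was compared with the controls by edgeR's quasi-likelihood test, with Benjamini-Hochberg adjustment over all genes tested and a threshold of 0.05, and a gene past it is called higher or lower. For Ly6a the log2 fold change was 0.48 ± 0.12 (SE) after 6 hours (edgeR adjusted p = 0.00508) and 0.40 ± 0.14 after 1 day (edgeR adjusted p = 0.0319). It was 0.86 ± 0.19 after 2 days (edgeR adjusted p = 0.00273) and 1.5 ± 0.21, or 2.83-fold, after 3 days (edgeR adjusted p = 3.87e-05). It stood at 1.00 ± 0.17 after 4 days (edgeR adjusted p = 0.000191) and 0.86 ± 0.19 after 5 days (edgeR adjusted p = 0.00126). Ly6a was thus called higher at all 6 durations, and it alone of the members was called after 2, 3 and 4 days. All 6 comparisons use one set of 5 controls, so their results are linked. The call after 1 day was lost when the 6 libraries rich in muscle RNA were left out (log2 fold change 0.34, edgeR adjusted p = 0.139), while the other 5 calls held. It was also lost on leaving out mouse 4 or 5 of 1 day or control 1 or 4 (edgeR adjusted p 0.0701 to 0.0928).

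In whole tissue, fewer cells of a type and less RNA per cell cannot be told apart, and the reverse holds for an increase. Endothelial markers, 10 genes of which none was at 0 in any library, summed to 323 to 398 CPM in controls, 527 to 627 after 6 hours and 629 to 732 after 1 day, and fell back to 292 to 462 by 5 days. Gene by gene, 3 of 10 tested were called higher and 2 lower after 6 hours (median log2 fold change 0.24). After 1 day 6 of 9 tested were higher and 0 lower (median 0.55). Macrophage and leukocyte markers summed to 78.6 to 172 CPM in controls and 141 to 514 after 3 days, and 1 of the 10, Fcgr1, was at 0 in 4 libraries. Of the 9 tested after 3 days 5 were called higher and 1 lower (median log2 fold change 0.67). The part of either cell type in the rise of Ly6a was not tested.

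**Figure D2:**
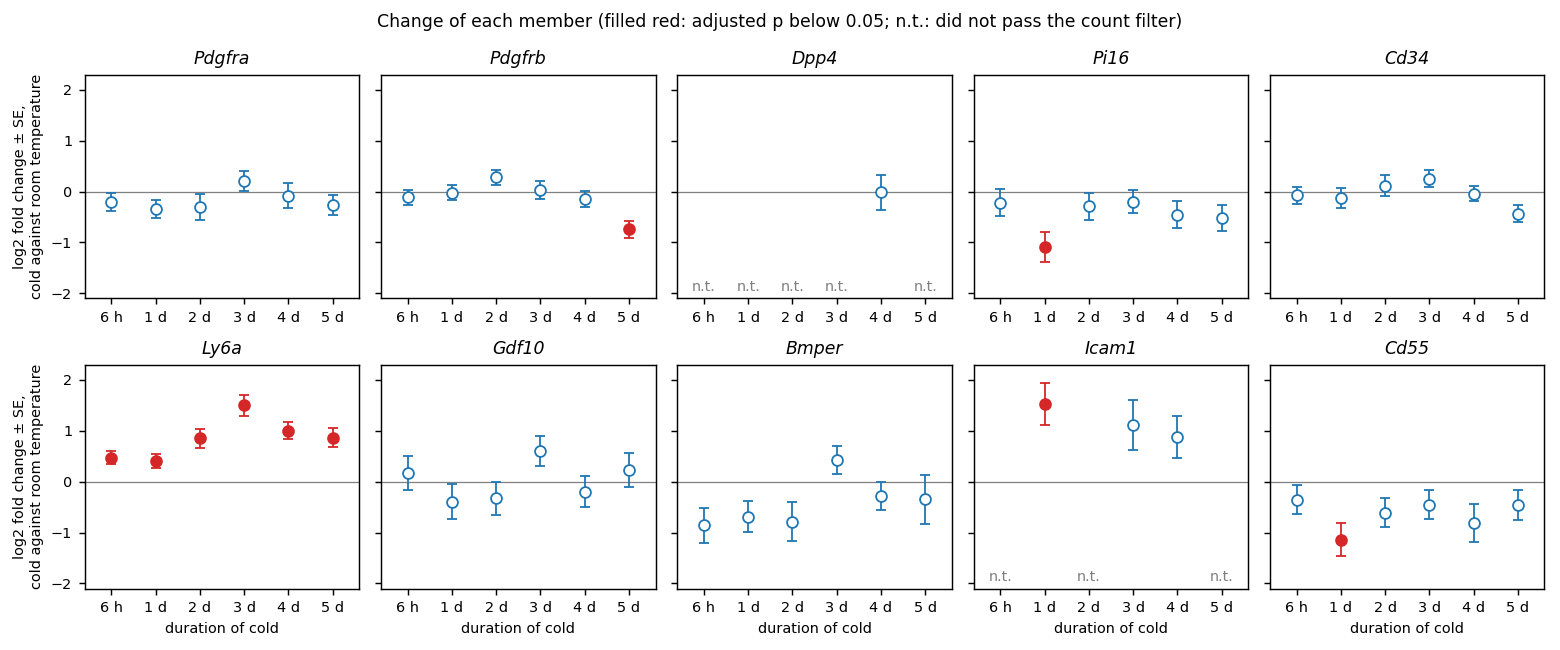
Log2 fold change of each member against room temperature (vertical axes) by duration of cold, with its SE. Filled red points passed the threshold in edgeR's test, open points did not, and n.t. marks comparisons in which the member was too low to be tested. Ly6a is red at every duration, and 4 members are red after 1 day.

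The share of members called was set beside the share of all genes called. After 6 hours 1 of the 8 members tested was higher, beside 21.5% of all 10593 genes tested higher and 21% lower. After 1 day 2 of 9 were higher and 2 lower, beside 18.9% and 17.8% of all genes. Icam1, one of those higher, passed the filter on low counts through its cold mice, and without it 1 of 8 was higher and 2 lower. After 2 days 1 of 8 was higher, with 16.4% of all genes higher and 14.7% lower, and after 3 days 1 of 9, with 18.3% and 15.5%. After 4 days 1 of 10 was higher, with 19.4% and 18.6%, and after 5 days 1 of 8 was higher and 1 lower, with 20.2% and 18.6%. A count of members near or under these shares is not a result about the members. With library size as the only scaling, fewer of the calls over all genes were higher, with 1342 of 4741 after 6 hours in place of 2280 higher beside 2225 lower, 1140 of 4358 after 1 day in place of 2014, and 931 of 3707, 1339 of 3769, 1440 of 4110 and 1194 of 4541 at the later durations in place of 1748, 1982, 2140 and 2167. Under it Ly6a was not called after 6 hours and 1 day. The members' median log2 fold change was -0.16, -0.33, -0.30, 0.25, -0.11 and -0.39 in order of duration, beside medians of all genes between -0.03 and -0.01.

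Pdgfrb, the receptor for PDGF-BB that pericytes and stromal cells carry, held its level for 4 days and was lower after 5 days. Controls had 13.3, 14.1, 18.9, 19.7 and 21.2 CPM, and mice after 4 days 12.7, 17.4, 14.3, 18.7 and 16.4 CPM. After 5 days the values were 12, 9.12, 11.8, 10.8 and 8.76 CPM, all below the lowest control. The mean fell from 17.5 ± 3.51 to 10.5 ± 1.5 CPM (SD, n = 5), a log2 fold change of -0.75 ± 0.17 (SE; edgeR adjusted p = 0.00203). Its highest mean, 21.3 ± 1.78 CPM, came after 2 days, where the log2 fold change of 0.28 ± 0.15 did not pass the test (edgeR adjusted p = 0.171). The ranges of the mice of 4 and 5 days did not overlap. The step between them did not pass the adjusted test either (log2 fold change -0.60 ± 0.15, edgeR adjusted p = 0.404).

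Mural markers, none of which was at 0 in any library, were also lower after 5 days. Of the 10 genes 6 were called lower then and none higher, with a median log2 fold change of -0.52, and their summed CPM was 279 to 351 against 438 to 458 in controls. Earlier the genes of this list went both ways, with 2 called higher and 3 lower after 6 hours (median 0.11) and 5 higher and 3 lower after 1 day (median 0.34), although their sum was low at both times (341 to 398 and 315 to 377 CPM). Pdgfrb was called at neither. After 4 days 0 of the 10 were called higher and 2 lower (median -0.16). The sum was then below every control in all 5 mice (362 to 434 CPM), while Pdgfrb was not called (edgeR adjusted p = 0.496). Mcam, an adhesion molecule of pericytes, had after 5 days a log2 fold change of -1.19 ± 0.26 (SE; edgeR adjusted p = 0.00134) and Cspg4, the NG2 proteoglycan, of -0.63 ± 0.15 (edgeR adjusted p = 0.00262). The part of mural cells in the fall of Pdgfrb was not tested.

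Pdgfra, the receptor tyrosine kinase that defines adipose progenitors, was called at no duration in the main test. It was called after 1 day with library size only, and after 2 days on leaving out mouse 2 of 2 days. Its mean was 11 ± 2.04 CPM (SD, n = 5) in controls, 8.8 ± 1.42 after 1 day and 12.7 ± 3.18 after 3 days, and its log2 fold change lay between -0.33 ± 0.18 (SE) after 1 day (edgeR adjusted p = 0.153) and 0.22 ± 0.20 after 3 days (edgeR adjusted p = 0.428). The mice differed most after 2 and 4 days (SD 4.4 and 4.3 CPM). After 2 days they had 8.44, 16.5, 5.57, 6.30 and 8.07 CPM, 1 mouse above and 2 below all controls, whose values were 10.6, 7.94, 13.5, 11 and 11.9 CPM.

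Cd34, a sialomucin of stromal, endothelial and haematopoietic cells, was likewise not called in the main test. Its mean was 16.9 ± 3.71 CPM in controls, 20 ± 3.08 on the third day of cold and 12.6 ± 2.18 on the fifth (SD, n = 5). The last comparison came close to the threshold, with a log2 fold change of -0.44 ± 0.17 (SE; edgeR adjusted p = 0.0549). It passed when the 6 muscle-rich libraries were left out, which made 3 members called after 5 days in place of 2.

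Pi16 and Cd55, both of the ASC2 group, were lower after 1 day and not called afterwards in the main test. With library size only, Cd55 was also called after 2 days and Pi16 after 5 days. Cd55 was called after 4 days on leaving out mouse 1 of 4 days. Pi16, a secreted and membrane-anchored peptidase inhibitor, had 9.06, 4.26, 6.96, 4.93 and 6.51 CPM in controls and 2.97, 3.20, 2.33, 1.53 and 4.82 CPM after 1 day. The ranges overlapped through 1 cold mouse, and the other 4 lay below every control. Its mean fell from 6.34 ± 1.88 to 2.97 ± 1.22 CPM (SD, n = 5), a log2 fold change of -1.09 ± 0.29 (SE; edgeR adjusted p = 0.008). After 6 hours it still had 5.24, 7.16, 5.59, 7.07 and 2.78 CPM, and after 2 days 6.79, 6.72, 3.96, 3.67 and 4.61 CPM.

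Cd55, the decay-accelerating factor that protects cells from complement, had 3.86, 4.84, 5.44, 3.12 and 6.51 CPM in controls and 1.30, 1.37, 3.58, 1.79 and 2.53 CPM after 1 day. Of the cold mice 4 of 5 were below every control. The log2 fold change was -1.14 ± 0.33 (SE; edgeR adjusted p = 0.0116), from a mean of 4.75 ± 1.33 to 2.11 ± 0.95 CPM (SD, n = 5). At the other durations its log2 fold change ranged from -0.81 to -0.36 and did not pass.

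The paralog Cd55b, next to Cd55, had 0 counts in all libraries.

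Dpp4, an exopeptidase and also a marker of ASC2, had too few reads to be tested against the controls with all genes except after 4 days. Its log2 fold change then was -0.02 ± 0.35 (SE; edgeR adjusted p = 0.972). Controls had 1.54, 1.94, 0.87, 1.97 and 2.35 CPM, and mice after 1 day 1.49, 0.69, 2.15, 0.51 and 0.46 CPM. The mean difference in log2 CPM after 1 day was -0.64 (exact two-sided permutation p = 0.103, unadjusted), and over the 5 untested durations these exact p-values ran from 0.103 to 0.50. The smallest that 5 against 5 mice can give is 0.00794.

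Other stromal genes were also lower after 1 day. Of 10 general stromal markers, most of them collagens and small proteoglycans, 7 were lower after 1 day and none was higher, with a median log2 fold change of -0.68, and the summed CPM of every mouse (829 to 1040) was below every control (1334 to 1704). At the other durations 1 or 2 of the 10 were lower and 0 to 2 higher. Their sum was also below every control in all 5 mice after 2 days (763 to 1295 CPM) and in 4 of 5 after 6 hours, when neither Pi16 nor Cd55 was called. The same held for 1 of 5 mice after 3 days, 3 of 5 after 4 days and 4 of 5 after 5 days (772 to 1518 CPM). The other 5 genes of the ASC2 list went both ways. Anxa3, an annexin, was higher after 1 day (log2 fold change 1.10 ± 0.17, SE; edgeR adjusted p = 0.000119), and 1 other of the 3 tested was lower. The part of stromal RNA as a whole in the fall of Pi16 and Cd55 was not tested.

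**Figure D3:**
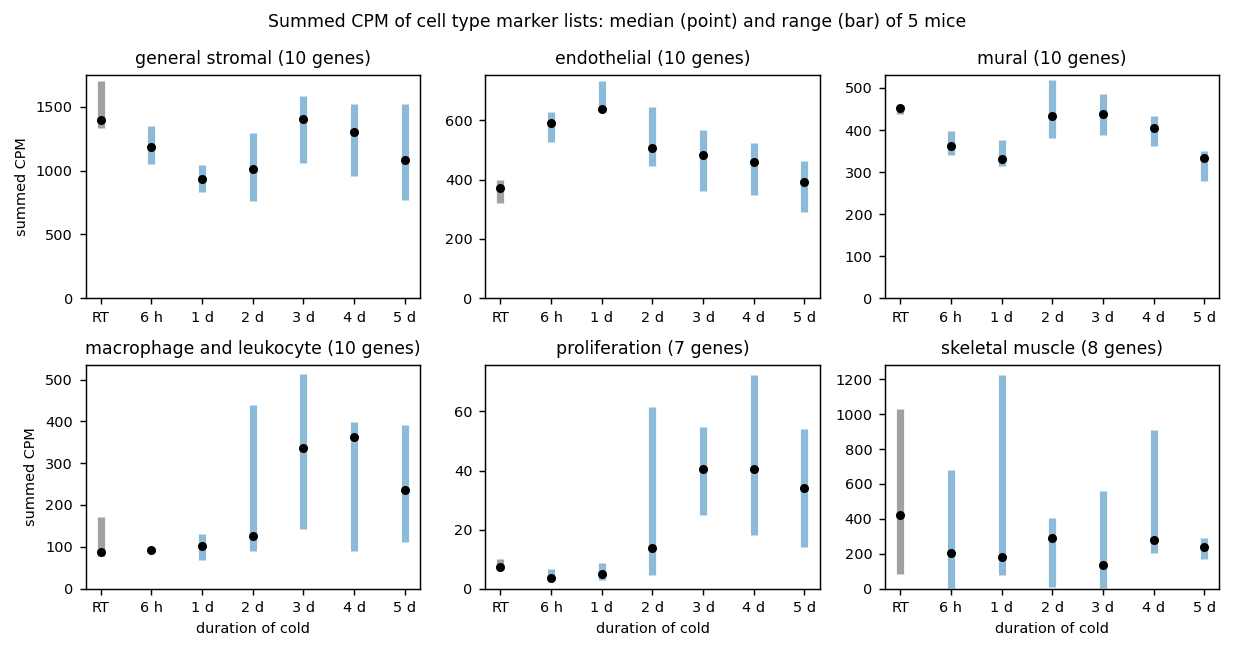
Summed CPM (vertical axes, from 0) of 6 marker lists by duration of cold, with the median of 5 mice as a point and their range as a bar. General stromal markers are lowest after 1 day, when endothelial markers are highest, the mural sum is lowest after 1 and 5 days (after 1 day with 5 of its genes called higher and 3 lower), and macrophage and proliferation markers rise from 2 or 3 days with wide ranges.

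Icam1 and Bmper, both of the ASC1 group, did not move together. Icam1, the adhesion molecule that binds leukocyte integrins, had 0.58, 0.97, 2.17, 0.66 and 1.81 CPM in controls and 4.46, 3.43, 1.43, 4.08 and 4.59 CPM after 1 day. In the cold group 4 of 5 mice were above every control, and the remaining mouse was within their range. The mean rose from 1.24 ± 0.72 to 3.60 ± 1.29 CPM (SD, n = 5), a log2 fold change of 1.53 ± 0.41 (SE; edgeR adjusted p = 0.00818). Icam1 passed the filter on low counts after 1, 3 and 4 days only, through the cold mice in which it was high. Its call after 1 day was also made with no filter (edgeR adjusted p = 0.00304), and over the 8 other settings the adjusted p was 0.00304 to 0.0345. After 3 and 4 days its log2 fold changes were 1.11 ± 0.49 (edgeR adjusted p = 0.089) and 0.88 ± 0.42 (edgeR adjusted p = 0.111).

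After 2 days the mice had 4.83, 6.49, 2.16, 1.05 and 2.02 CPM of Icam1, a mean difference in log2 CPM of 1.06 from controls (exact two-sided permutation p = 0.0635, unadjusted). Icam1 was called higher on that day by DESeq2, with all 7 groups in one fit, with no filter, and on leaving out mouse 3, 4 or 5 of 2 days. After 6 hours and 5 days the differences were 0.57 (exact permutation p = 0.214) and 0.66 (exact permutation p = 0.0873). Its mean was above that of the controls at all 6 durations, and it passed at 1 of the 3 where the main test included it. The endothelial sums after 1 day, given above, were also the highest of the time course, and their part in the level of Icam1 was not tested.

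The sequence before the start of Icam1 is shown beside that of Cd55, since the values of the 2 genes after 1 day lay on opposite sides of most controls. RefSeq windows were held for 8 of the 10 members, without Ly6a and Pdgfrb. The 250 bases before each start are given 5′ to 3′ on the gene's strand, from GRCm38.p6, at chr9:21015690-21015939 (plus strand) for Icam1 and at chr1:130462745-130462994 (minus strand) for Cd55. Capitals mark every match, on either strand, to GGNANTTCC (an NF-kB-like site, N being any base), TTCNNNGAA (a GAS-like site), TTTCNNTTT (a shortened ISRE), TATAAA or GGGCGG (a GC box).
Icam1: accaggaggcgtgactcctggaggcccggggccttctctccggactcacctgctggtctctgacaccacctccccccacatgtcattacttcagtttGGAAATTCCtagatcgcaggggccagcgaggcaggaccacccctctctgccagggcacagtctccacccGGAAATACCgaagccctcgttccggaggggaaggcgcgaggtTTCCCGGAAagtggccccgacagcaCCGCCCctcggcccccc
Cd55: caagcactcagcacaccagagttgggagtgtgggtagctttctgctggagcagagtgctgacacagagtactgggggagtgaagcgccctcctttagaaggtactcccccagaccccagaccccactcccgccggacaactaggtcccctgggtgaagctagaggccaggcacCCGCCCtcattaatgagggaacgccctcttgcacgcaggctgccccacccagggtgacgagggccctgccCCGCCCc
The Icam1 window held 2 NF-kB-like matches, 153 and 84 bases before the start, a GAS-like match 42 bases before it and 1 GC box. The Cd55 window held 2 GC boxes and no other match. NF-kB-like matches occurred in 3.92% of 32851 windows of this length, GAS-like in 7.02%, shortened ISRE in 9.37%, TATAAA in 12.4% and GC boxes in 32.7%. Among the 8 members the NF-kB-like and GAS-like letters were found in Icam1 alone, and GC boxes in 4. These matches describe letters and not occupied sites.

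Bmper, a secreted protein that binds BMPs and tunes their signal, tended the other way early on. Controls had 3.28, 2.90, 4.35, 4.93 and 2.90 CPM, and mice after 6 hours 2.88, 2.08, 1.34, 0.71 and 3.14 CPM. With a log2 fold change of -0.86 ± 0.35 (SE), the comparison fell just short of the threshold (edgeR adjusted p = 0.0543). The mean was 4.91 ± 1.41 CPM after 3 days (SD, n = 5), the highest of the time course, with a log2 fold change of 0.43 ± 0.27 (edgeR adjusted p = 0.236). After 5 days the mice ranged from 0.22 CPM, a single read, to 6.77 CPM, against 2.9 to 4.93 CPM in controls.

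All 4 other genes on the ASC1 list were called after 4 days, Smoc2 and Hsd11b1 lower and Col5a3 and Cxcl14 higher. Cxcl14, a chemokine, was higher at every duration up to 4 days, with its largest log2 fold change after 1 day (1.75 ± 0.17, SE; edgeR adjusted p = 7.41e-07) and 0.48 ± 0.14 after 4 days (edgeR adjusted p = 0.0129). Smoc2, a matricellular protein, had a mean of 34.6 ± 5.38 CPM in controls and 12.4 ± 5.29 after 4 days (SD, n = 5; log2 fold change -1.49 ± 0.23, SE; edgeR adjusted p = 9.12e-05), and was lower at all 6 durations. Hsd11b1, which regenerates active glucocorticoid, fell from 46.1 ± 14.3 to 15.5 ± 8 CPM (log2 fold change -1.59 ± 0.28, SE; edgeR adjusted p = 0.000348). Col5a3, a minor fibrillar collagen chain, was lower after 6 hours (log2 fold change -0.61 ± 0.13, SE; edgeR adjusted p = 0.00143) and higher after 4 days (0.63 ± 0.14, SE; edgeR adjusted p = 0.0019). Bmper and Icam1, with these 4, thus give a list whose genes were called in both directions.

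Gdf10, a ligand of the TGF-beta family, was called at no duration. Its controls had 2.31, 2.32, 2.39, 1.97 and 3.8 CPM. After 3 days the mice had 3.27, 3.49, 3.38, 3.27 and 6.17 CPM, 1 mouse above every control and the other 4 close to one another. The log2 fold change there was 0.60 ± 0.30 (SE; edgeR adjusted p = 0.131), and elsewhere it lay between -0.39 and 0.23. Every mouse of 3 days was above every mouse of 2 days (1.36 to 3.01 CPM) and of 4 days (1.44 to 2.94 CPM). Neither the step from 2 to 3 days nor that from 3 to 4 days passed (edgeR adjusted p = 0.302 and 0.619). Of the other ASC3 genes, F3 (tissue factor) was lower after 6 hours, 1 day and 3 days (log2 fold changes -0.58 ± 0.20, -0.93 ± 0.33 and -0.55 ± 0.19, SE), and Fmo2, a flavin monooxygenase, was higher after 2 and 3 days (0.62 ± 0.23 and 0.72 ± 0.18). None of the list was called by edgeR after 4 or 5 days.

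Over the whole course, a test for any difference among the 7 groups called 3 of the 10 members, beside 60.4% of all 12077 genes tested. They were Ly6a (edgeR adjusted p = 1.71e-05), Pdgfrb (edgeR adjusted p = 5.09e-05) and Pi16 (edgeR adjusted p = 0.0345). Pi16 was not called with no filter, nor in 7 of the 35 fits that left out 1 mouse (controls 1, 3 and 5 and mice 1 to 4 of 1 day), while Ly6a and Pdgfrb were called in all 35. For 6 members, Pdgfra, Dpp4, Cd34, Ly6a, Gdf10 and Bmper, the highest of the 7 group means came after 3 days, and for 5, Pdgfra, Dpp4, Pi16, Gdf10 and Cd55, the lowest came after 1 day. This order of means was not tested and is a description.

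Contrasts between successive durations, fitted on all 35 mice with no control mouse in the contrast, asked at which step a member moved. From 6 hours to 1 day 1 member of 10 was called, Pi16, with a log2 fold change of -0.89 ± 0.29 (SE; edgeR adjusted p = 0.0314), beside 15.3% of all genes. This call was lost, with edgeR adjusted p from 0.0551 to 0.104, when any 1 of 6 mice was left out (1 day mice 1, 3 and 4 and 6 hour mice 2, 3 and 4). No member was called in the main edgeR fit or by DESeq2 from 1 to 2 days (3.15% of all genes called), 2 to 3 days (0.497%), 3 to 4 days (0%) or 4 to 5 days (0%). With no filter on low counts, edgeR called Ly6a from 1 to 2 days and from 2 to 3 days. In the main fit 3, 4, 2 and 2 members had an unadjusted p below 0.05 at these steps. The share of all genes below that unadjusted threshold was not worked out, so these counts are not a result about the members. The 4 at the step from 2 to 3 days, Gdf10, Bmper, Dpp4 and Ly6a, had log2 fold changes of 0.90 ± 0.34, 1.20 ± 0.45, 1.10 ± 0.45 and 0.62 ± 0.22 (SE), each with an adjusted p of at least 0.269 in the main edgeR fit.

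Mice of the same duration differed from one another, and the members were therefore compared over mice after the mean of each duration had been removed from log2 CPM (prior count 2). The labels give no batch within which to repeat this. With Pdgfra, 3 of 9 relations passed a two-sided permutation test of mice within durations, and 7 did with library size as the only scaling. The lowest r of the 3, that of Pi16, was reached by 2.61% of 8885 other genes, and the median r was 0.376 over the members and -0.0448 over those genes. Ly6a had r = 0.63 (permutation p = 0.00063, adjusted p = 0.00549; rho = 0.671, permutation p = 0.00011, adjusted p = 0.00099), and r = 0.608 once the 2 mice with the most extreme Pdgfra were left out. For Icam1 r was 0.568 (permutation p = 0.00122, adjusted p = 0.00549; rho = 0.587, permutation p = 0.00078, adjusted p = 0.00351; r = 0.446 without those mice), and for Pi16 0.501 (permutation p = 0.00348, adjusted p = 0.0104; rho = 0.562, permutation p = 0.00146, adjusted p = 0.00438; r = 0.468). Cd34 passed on rho (0.42, permutation p = 0.0166, adjusted p = 0.0373) and not on r (0.379, permutation p = 0.0286, adjusted p = 0.0644; r = 0.32 without the 2 mice). The other 5 had r from 0.0782 (Gdf10) to 0.376 (Cd55), and did not pass on either measure.

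With Top2a, the topoisomerase of dividing cells that stands for proliferation here, 7 of 10 relations passed on r. The lowest r of the 7, that of Dpp4, was reached by 9.18% of 8885 other genes, and the median r was 0.49 over the members and -0.0511 over those genes. The strongest was Ly6a with r = 0.654 (permutation p = 0.00024, adjusted p = 0.0024; rho = 0.606, permutation p = 0.00064, adjusted p = 0.00633; r = 0.614 once the 2 mice with the most extreme Top2a were left out). Bmper followed with r = 0.594 (permutation p = 0.00332, adjusted p = 0.0111; rho = 0.425, permutation p = 0.0232, adjusted p = 0.0387; r = 0.537 without them). Icam1 had r = 0.564 (permutation p = 0.00121, adjusted p = 0.00605; rho = 0.556, permutation p = 0.0019, adjusted p = 0.00633; r = 0.467 without them), and Pdgfra r = 0.51 (permutation p = 0.018, adjusted p = 0.0299; rho = 0.501, permutation p = 0.00991, adjusted p = 0.0248; r = 0.545).

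Cd34 had r = 0.493 with Top2a (permutation p = 0.0108, adjusted p = 0.0217; rho = 0.458, permutation p = 0.0178, adjusted p = 0.0356; r = 0.314 without the 2 mice) and Pi16 r = 0.487 (permutation p = 0.00588, adjusted p = 0.0147; rho = 0.597, permutation p = 0.00142, adjusted p = 0.00633; r = 0.425). Dpp4 passed on r alone (0.362, permutation p = 0.0292, adjusted p = 0.0418; rho = 0.323, permutation p = 0.0653, adjusted p = 0.0934), and had r = 0.257 without the 2 mice. It no longer passed when any 1 of 17 mice was left out. The relation of Pdgfra was lost on leaving out any 1 of 3 mice (adjusted permutation p 0.0549 to 0.0727). That of Cd34 was lost on leaving out 1 mouse (adjusted permutation p = 0.0549) and with only the 20 mice after 2 to 5 days (adjusted permutation p = 0.0575). Gdf10, Cd55 and Pdgfrb had r of 0.252, 0.166 and 0.112 and did not pass. Leaving out the fourth mouse of 2 days brought the number of relations past the threshold from 7 to 4.

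**Figure D4:**
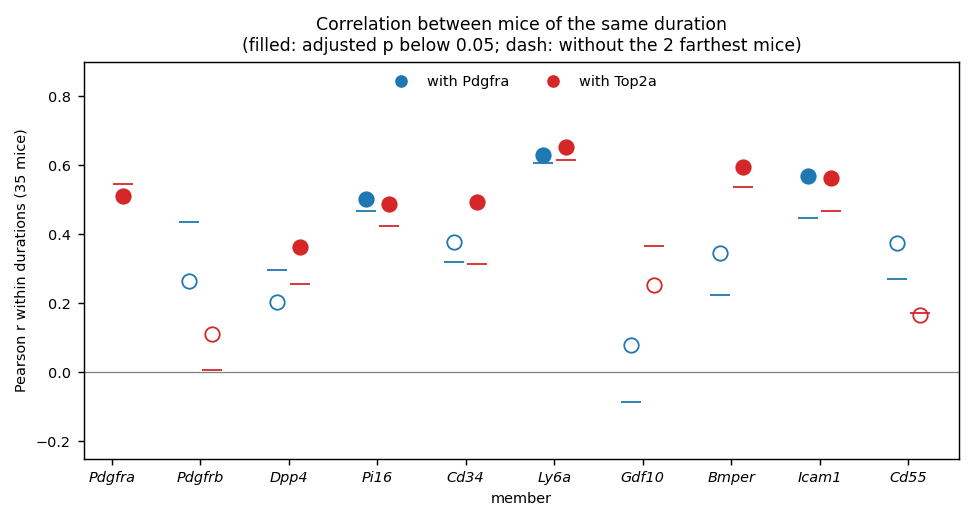
Pearson r of each member with Pdgfra (blue) and Top2a (red) over 35 mice after removal of duration means, on the vertical axis. Filled points passed the permutation test after adjustment, and dashes give r with the 2 mice most extreme in Pdgfra or Top2a left out. Ly6a has the highest r with both genes, at 0.63 and 0.654.

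No gene was among those most like more than 2 of the members, and Col6a2 was so for 2. Of 8885 genes with a symbol and a mean of at least 20 counts, those most like Ly6a over the 35 mice were Lgals3 (r = 0.89, and 0.821 within durations), a galectin of macrophages, and Ifitm3 (r = 0.884, and 0.864 within durations), an interferon-induced membrane protein. Lgals3 had 6.5 ± 2.72 CPM in controls and 137 ± 93.3 after 3 days (SD, n = 5). Those most like Pi16 were Lum (r = 0.783, and 0.764 within durations), which encodes the stromal proteoglycan lumican, and Tap2 (r = 0.716, and 0.645). Pdgfra was most like Col6a2 (r = 0.702, and 0.627), a collagen VI chain, and Alox5ap (r = 0.686, and 0.76), a protein of leukotriene synthesis in leukocytes.

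Icam1 was most like Flna (r = 0.772, and 0.809 within durations), an actin crosslinker, and mt-Ti (r = 0.7, and 0.639). Bmper was most like Nucb2 (r = 0.714, and 0.713) and Col1a2 (r = 0.679, and 0.627), a chain of collagen I. Dpp4 had Plxdc2 and Col6a2, Cd34 had Mapre2 and Slfn5, Pdgfrb had Creb1 and Il6st, Cd55 had Fbxl12 and Psme1, and Gdf10 had Rpl35a and Fst, with r over mice from 0.559 to 0.679. The points share libraries and depth, the genes were picked for their r, and these values describe the 35 mice only.

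Among 10 genes of PDGF signalling other than the receptors, calls went both ways at every duration. Pdgfb, the ligand of Pdgfrb, was higher at all 6, from 26.1 ± 7.45 CPM in controls to 79.1 ± 14.7 after 6 hours (SD, n = 5; log2 fold change 1.58 ± 0.17, SE; edgeR adjusted p = 1e-06) and 40.1 ± 6.78 after 5 days (0.61 ± 0.17, SE; edgeR adjusted p = 0.00852). Pik3r1, a regulatory subunit of PI3-kinase, was lower after 4 days (log2 fold change -1.57 ± 0.15, SE; edgeR adjusted p = 7.37e-07), and Ptpn11, a phosphatase recruited by both receptors, was slightly higher (0.30 ± 0.11, SE; edgeR adjusted p = 0.0344), a call lost in 4 other settings (edgeR adjusted p 0.0583 to 0.262), the replicate block among them, and on leaving out any 1 of 6 mice. After 4 days 3 of 10 were higher and 2 lower, with a median of -0.07. After 5 days the ligand Pdgfb was thus higher and its receptor Pdgfrb lower than in controls.

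Among 27 genes of BMP signalling, to which Bmper and Gdf10 relate, 3 of 19 tested were higher and 4 lower after 4 days, with a median log2 fold change of -0.36. Bmp8b, a ligand of brown adipocytes, was near 0 in controls, at 0 or 1 read per library, and had 19.3 to 30.4 CPM after 4 days. Smad1 and Smad5, which carry the BMP signal to the nucleus, were lower (log2 fold changes -0.68 ± 0.17 and -0.36 ± 0.10, SE; edgeR adjusted p = 0.00556 and 0.00679). Smad5 was not called with no filter on low counts (edgeR adjusted p = 0.0546).

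Of 15 integrin partners of Icam1 and targets of NF-kB, 6 were tested after 4 days, 3 higher and 1 lower. Vcam1 and Icam2, adhesion molecules as Icam1 is, were higher after 4 days (log2 fold changes 0.70 ± 0.21 and 0.65 ± 0.23, SE; edgeR adjusted p = 0.0162 and 0.0324), and Nfkbia, an inhibitor of NF-kB, was lower (-0.37 ± 0.11, SE; edgeR adjusted p = 0.014). With library size only neither Vcam1 nor Icam2 was called after 4 days (edgeR adjusted p = 0.0727 and 0.0736), nor was Nfkbia with all 7 groups in one fit (edgeR adjusted p = 0.079). Icam2 was also lost with the replicate block (edgeR adjusted p = 0.054), without the muscle-rich libraries (edgeR adjusted p = 0.146) and on leaving out any 1 of 5 mice. After 1 day, when Icam1 was called, Icam2 was higher (log2 fold change 0.68 ± 0.18, SE; edgeR adjusted p = 0.00672) and Vcam1 was not called (0.26 ± 0.22, SE; edgeR adjusted p = 0.392). Of 10 genes of complement and its regulation, to which Cd55 belongs by function, 2 of 7 tested were lower after 4 days and none higher. They were Cfd, the adipocyte-made factor D (log2 fold change -2.94 ± 0.13, SE; edgeR adjusted p = 1.18e-10), and Cr1l, a membrane regulator that acts as Cd55 does (-0.43 ± 0.12, SE; edgeR adjusted p = 0.01).

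The members lie apart in the genome, and no 2 are neighbours. In GENCODE vM21 on GRCm38, Pdgfra spans chr5:75152292-75198215, Pdgfrb chr18:61045150-61085061, Dpp4 chr2:62330073-62412231, Pi16 chr17:29317680-29330593 and Cd34 chr1:194938819-194961279. Ly6a spans chr15:74994877-74998031, Gdf10 chr14:33923587-33937983, Bmper chr9:23223076-23485200, Icam1 chr9:21015985-21028817 and Cd55 chr1:130439027-130462744. Exons of Pdgfra, Dpp4, Pi16, Cd34, Icam1 and Cd55 overlap annotated genes on the other strand, and since the strand setting of the counting was not given in the sources used here, reads of the pairs cannot be told apart with certainty. Those partners held at most 6 reads in any library. Ly6a has close relatives, and Ly6c1 (179 to 621 reads per library) and Ly6e (143 to 756 reads) were counted separately.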

How the data were processed

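RNA of 35 iBAT pads, 1 per mouse, was sequenced with the QuantSeq 3′ FWD kit. According to the submitters' processing notes, reads were aligned with STAR 2.6.1d and counted with HTSeq 0.11.2 on GRCm38. The authors deposited whole-number counts per gene without normalization, and all columns belonged to these samples. The 10 members and the gene lists were chosen with earlier results of these data known. Fits used edgeR 4.0.16 (R 4.3.3) with TMM and filterByExpr, and no batch is given in the labels. CPM are TMM-normalized. Members below the filter got exact permutation tests. Correlations used 100000 permutations in Python 3.11.15 (numpy 2.4.6). From each other list, up to 3 genes called after 4 days with the smallest adjusted p were named, and for each member the 2 genes most like it. Fcgr1, Wnt2, Cd55b, Ly6c1, Ly6e, Cxcl14, F3 and Fmo2 were named after their values were seen. The code was tested on simulated data. Alternatives were DESeq2 1.42.0, RLE or no scaling factors, other gene and count filters, other samples in the fit, blocking on the replicate number, and each mouse omitted in turn. Leaving out muscle-rich libraries was chosen after seeing the data.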

Additional observations from a re-analysis of the deposited data

Results flagged for a closer look

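Among 70 sets of 5 mice (10 members in 7 groups), 4 held 1 mouse set apart from its group by Dixon's criterion on log2 CPM, where chance gives about 1 in 20. They were Pi16 after 3 days, where mouse 1 had 6.3 CPM and the others 5.13 to 5.4, and Gdf10 in controls, where mouse 5 had 3.8 CPM and the others 1.97 to 2.39. Gdf10 after 3 days had mouse 5 at 6.17 CPM and the others at 3.27 to 3.49, and Icam1 after 1 day had mouse 3 at 1.43 CPM and the others at 3.43 to 4.59.

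The change of Pi16 differed between 2 durations, with a log2 fold change of -0.89 from 6 hours to 1 day in the contrast of the 2 (edgeR adjusted p = 0.0314). Its adjusted p ranged from 0.0267 to 0.0715 over the other settings.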

How the results depend on the processing

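No result changed direction. All calls of Pi16, Cd55 and Icam1 after 1 day, of Pdgfrb after 5 days and of Ly6a after 2 to 5 days held under every setting run. Ly6a was lost after 1 day in 4 of 8 other settings (edgeR adjusted p 0.0176 to 0.358 over them, DESeq2 included), and after 6 hours in 2 of 8 (0.00103 to 0.0864). With a replicate block 3 members were called after 1 day in place of 4 (Ly6a, edgeR adjusted p = 0.0516), and the block changed no other call of a member. Of 105 same-numbered pairs of mice 16 had deviations correlated above 0.1, and the median correlation was -0.00759. Differently numbered pairs were not examined, so these values cannot show whether the numbers pair the mice. After 2 days 2 members were called by DESeq2, with all 7 groups in one fit, with library size only and with no filter. With all 7 groups in one fit 0 were called after 6 hours. With library size only 4 were called after 5 days, and 7 relations with Pdgfra passed in place of 3. That scaling moved the median of all genes to between -0.25 and -0.15 on the log2 scale, and after 1 day it called 1 member higher and 4 lower in place of 2 and 2. With no filter 5 members were called over all 7 groups in place of 3, and 1, Ly6a, from 1 to 2 days and again from 2 to 3 days in place of 0. From 6 hours to 1 day 0 were called with library size only, with no filter and with only the 2 groups in the fit. The cause of these shifts was not tested. Leaving out 1 mouse at a time gave 1 to 2 members called after 6 hours, 3 to 4 after 1 day, 1 to 2 after 2, 3 and 4 days, and 2 to 3 after 5 days. The higher counts came without mouse 5 of 6 hours, any of mice 2 to 5 of 2 days, mouse 2 of 3 days, mouse 1 of 4 days, and control 3 or mouse 3 of 5 days in the comparison of 5 days. It gave 2 to 6 over all 7 groups, with 6 without mouse 3 of 1 day or mouse 2 of 3 days and 5 without mouse 4 of 2 days or mouse 5 of 5 days, 0 to 1 from 6 hours to 1 day, and 0 in the later steps. Relations with Pdgfra that passed numbered 3 to 4 and with Top2a 4 to 7. At this depth Dpp4, Icam1, Gdf10 and Bmper rest on few reads, and small changes in them could not be seen.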
